A study of Mus musculus with 79 samples.

Results

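The pyruvate dehydrogenase complex and the enzymes that switch it on and off were described in quadriceps of BXD mice. The 10 genes were the kinases Pdk1, Pdk2, Pdk3 and Pdk4, the phosphatase genes Pdp2 and Pdpr, and the subunit genes Pdha1, Pdhb, Pdhx and Dlat, out of 22335 genes named on the array. They were chosen by gene symbol, which found 9 of them. Pdpr was found through a synonym in RefSeq, 4930402E16Rik. Each gene was read from its probeset with the highest mean, and only Pdha1 had a second probeset.

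Expression was measured on Affymetrix Mouse Gene 1.0 ST arrays in 79 cohorts of males, 42 on chow diet (CD, Harlan 2018) and 37 on high fat diet (HFD, Harlan 06414). HFD was started at 8 weeks of age, and all animals, on either diet, were fasted overnight and sacrificed at 29 weeks. A cohort was a pool of about 5 animals of 1 strain on 1 diet, and variation between animals within a strain could not be seen. The strains were C57BL/6J, DBA/2J and inbred BXD lines descended from them, and 37 strains had an array on each diet. Values are in units of the deposited score, which was scaled array by array to mean 8.0 and SD 2.0, and a nominal fold takes 1 unit as a doubling. The labels place the arrays in 2 batches, in which RNA extraction and array run cannot be told apart. All 9 skeletal muscle markers were bright, with CD means from 13.7 units (Mylpf) to 15.2 units (Acta1). The arrays of BXD63 stood apart, because the diet differences of its olfactory receptor genes ran against the mean of the other strains (r -0.537 across 1154 probesets, which are not independent), where the other 36 strains gave 0.421 to 0.649.

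The complex turns pyruvate into acetyl-CoA inside mitochondria and so gates the entry of glucose carbon into the citric acid cycle. Its E1 enzyme is built from the products of Pdha1 and Pdhb, its E2 core from Dlat, and Pdhx encodes the protein that tethers the E3 enzyme, dihydrolipoamide dehydrogenase (Dld). The kinases phosphorylate E1 and turn it off, and phosphatases turn it on again. In muscle, Pdk4 is the kinase best known for its induction by fasting and by fat.

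Promoter sequence is shown for the kinase and the phosphatase that varied together (Pdk4 and Pdp2) and for the pair of subunits that varied together most (Pdhb and Pdhx), as described further on. The windows run from 250 bases before to 50 bases after the gene start, read 5′ to 3′ on the gene's strand, and come from RefSeq on GRCm38.p6. They lie at chr6:5496229-5496528 on the minus strand for Pdk4, chr8:104591222-104591521 on the plus strand for Pdp2, chr14:8172943-8173242 on the minus strand for Pdhb and chr2:103073464-103073763 on the minus strand for Pdhx. Capitals mark CCAAT, the Sp1 letters GGGCGG and the E-box CACGTG on either strand.
Pdk4: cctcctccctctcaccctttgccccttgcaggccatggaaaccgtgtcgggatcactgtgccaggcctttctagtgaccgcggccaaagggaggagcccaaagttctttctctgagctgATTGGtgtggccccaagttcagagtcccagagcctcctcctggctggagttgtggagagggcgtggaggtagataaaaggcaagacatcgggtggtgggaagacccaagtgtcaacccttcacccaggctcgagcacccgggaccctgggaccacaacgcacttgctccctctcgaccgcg
Pdp2: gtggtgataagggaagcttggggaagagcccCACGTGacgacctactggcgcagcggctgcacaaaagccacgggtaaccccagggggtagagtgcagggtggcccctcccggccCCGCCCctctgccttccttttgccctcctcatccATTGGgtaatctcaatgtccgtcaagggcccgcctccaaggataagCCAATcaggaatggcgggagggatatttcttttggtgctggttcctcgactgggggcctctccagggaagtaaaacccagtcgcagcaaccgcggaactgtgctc
Pdhb: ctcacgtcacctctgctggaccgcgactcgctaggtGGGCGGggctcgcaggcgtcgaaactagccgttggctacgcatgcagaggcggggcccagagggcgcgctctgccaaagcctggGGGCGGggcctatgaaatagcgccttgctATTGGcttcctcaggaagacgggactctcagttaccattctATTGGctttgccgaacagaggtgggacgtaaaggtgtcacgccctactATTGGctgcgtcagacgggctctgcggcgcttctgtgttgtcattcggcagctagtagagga
Pdhx: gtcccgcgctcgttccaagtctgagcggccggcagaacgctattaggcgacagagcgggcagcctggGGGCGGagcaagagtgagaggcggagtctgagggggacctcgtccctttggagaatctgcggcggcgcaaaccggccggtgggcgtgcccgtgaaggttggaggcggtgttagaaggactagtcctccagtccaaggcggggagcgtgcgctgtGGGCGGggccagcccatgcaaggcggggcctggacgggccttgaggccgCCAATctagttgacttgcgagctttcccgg
The 10 genes had 12 windows in the table, with 2 each for Pdk1 and Pdk2. Their GC content ran from 57.7% to 76.7%, apart from a Pdk1 window at 40.3%, against a median of 52.7% over all windows. The shares that follow were not matched for GC content. CCAAT was found in 6 of the 12 windows, against 37.4% of all 32851 windows, and GGGCGG in 7 of 12, against 35.7%. CACGTG was found in 3, those of Pdk2, Pdp2 and Pdpr, against 7.2% of all. The nuclear receptor half-site AGGTCA (16.3% of all windows), the FoxO letters GTAAACA (3.6%), TATAAA (13.6%) and GCATGCGC, part of the NRF1 site (2.7%), were found in 0 of the 12. Both strands were searched, and no motifs overlapped in these 12 windows. A match describes letters in a short window and does not mark a site.

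The first question was whether diet moved the kinases against the subunits. None of the 4 kinases passed the test, and of the 10 genes Dlat alone did, at a difference of 0.073 units, or 1.05-fold nominal. Across the array 38.1% of the 35556 probesets were called between diets, with 18.9% higher and 19.3% lower on HFD than on CD (limma with Benjamini-Hochberg adjustment, threshold 0.05), so 1 call among 10 genes is fewer than the share of all probesets would give. The median difference was -0.032 units over the kinases, 0.016 over both phosphatase genes and 0.049 over the subunits, and the absolute difference had a median of 0.076 over all probesets.

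Among the kinases, Pdk4 lay between 13.70 and 14.78 units in CD (median 14.54) and between 14.03 and 14.77 units in HFD (median 14.45). The groups overlapped nearly throughout, and only the CD arrays of C57BL/6J, BXD68 and BXD101 lay below every HFD array. The means were 14.47 ± 0.24 units (SD, n = 42) and 14.43 ± 0.19 units (SD, n = 37). Pdk4 differed by -0.038 units (SE 0.0487, 95% interval -0.135 to 0.058, limma adjusted p 0.566), and Pdk4 was higher in HFD in 15 of 37 strains. The interval reaches from 0.911-fold to 1.04-fold nominal, and a shift inside it remains compatible with the data. When each strain was left out in turn the difference ran from -0.0645 units (without BXD68) to -0.0215 units (without BXD70). Pdk2, the kinase found in most tissues, lay between 12.99 and 13.41 units in CD (median 13.24) and between 12.99 and 13.43 units in HFD (median 13.21). Both groups covered the same span, and the means differed by -0.026 units (SE 0.0231, limma adjusted p 0.385). Pdk1, a kinase known as a target of hypoxia signalling, lay between 9.57 and 10.18 units in CD (median 9.86) and between 9.58 and 10.09 units in HFD (median 9.84). Its difference was -0.004 units (limma adjusted p 0.929), with a sign that turned under 4 of the alternatives. Pdk3 lay between 7.16 and 7.74 units in CD (median 7.44) and between 6.95 and 7.73 units in HFD (median 7.41). Its 4 lowest values were HFD arrays, and its difference was -0.046 units (SE 0.0352, limma adjusted p 0.311).

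Pdp2 encodes a catalytic phosphatase subunit and Pdpr the regulatory subunit of the phosphatase. Pdp2 lay between 7.31 and 8.54 units in CD (median 7.93) and between 7.28 and 8.93 units in HFD (median 7.97). Its spread was the widest of the 10 genes on both diets, the 5 highest arrays were HFD arrays, and the difference of 0.066 units (SE 0.0743, limma adjusted p 0.511) was smaller than its SE. Without BXD68 it was 0.0354 units. Pdpr lay between 11.74 and 12.24 units in CD (median 11.93) and between 11.60 and 12.22 units in HFD (median 11.90). The difference was -0.033 units (SE 0.0293, limma adjusted p 0.388), and Pdpr was lower in HFD in 26 of 37 strains. The other phosphatase gene, Pdp1, is the catalytic subunit best known in muscle and lay outside the 10. On HFD it rose by 0.124 units (SE 0.0412), in 31 of 37 strains, with a limma adjusted p of 0.0127.

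Of the subunits, Dlat lay between 11.34 and 12.04 units in CD (median 11.73) and between 11.43 and 12.06 units in HFD (median 11.83). The ranges overlapped almost fully, and the shift lay in the middle of the groups. The means were 11.73 ± 0.13 units (SD, n = 42) and 11.80 ± 0.14 units (SD, n = 37), the difference was 0.073 units (SE 0.0305, 95% interval 0.013 to 0.134, limma adjusted p 0.0491), and Dlat was higher in HFD in 25 of 37 strains. The call was marginal. It was lost without BXD63 (limma adjusted p 0.0568), and when each strain was left out in turn Dlat was called in 15 of 42 fits, with adjusted p up to 0.0792 without BXD70. Pdhx lay between 9.77 and 10.35 units in CD (median 10.04) and between 9.91 and 10.36 units in HFD (median 10.09). Its difference was 0.069 units (SE 0.0294, limma adjusted p 0.053), higher in HFD in 24 strains. With strain as a replicate block over the paired strains both subunits were called, with limma adjusted p 0.0121 for Dlat and 0.0295 for Pdhx.

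Pdhb lay between 10.46 and 11.13 units in CD (median 10.70) and between 10.39 and 11.11 units in HFD (median 10.69). The groups overlapped almost completely, and the difference was -0.023 units (SE 0.0362, limma adjusted p 0.658). Pdha1, the E1 alpha subunit and the target of the kinases, lay between 12.55 and 12.94 units in CD (median 12.73) and between 12.55 and 12.97 units in HFD (median 12.77). Its difference was 0.029 units (SE 0.0239, limma adjusted p 0.358), higher in HFD in 22 strains. The second Pdha1 probeset differed by 0.122 units between diets (SE 0.0345, limma adjusted p 0.00306), with means of 7.72 ± 0.14 units (SD, n = 42) in CD and 7.84 ± 0.16 units (SD, n = 37) in HFD, in 28 of 37 strains. The probesets of Pdha1 therefore disagreed on the call, and the dimmer one did not pass the test for strain described further on. Dld, which lay outside the 10, differed by 0.053 units (SE 0.0425, limma adjusted p 0.337).

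**Figure D1:**
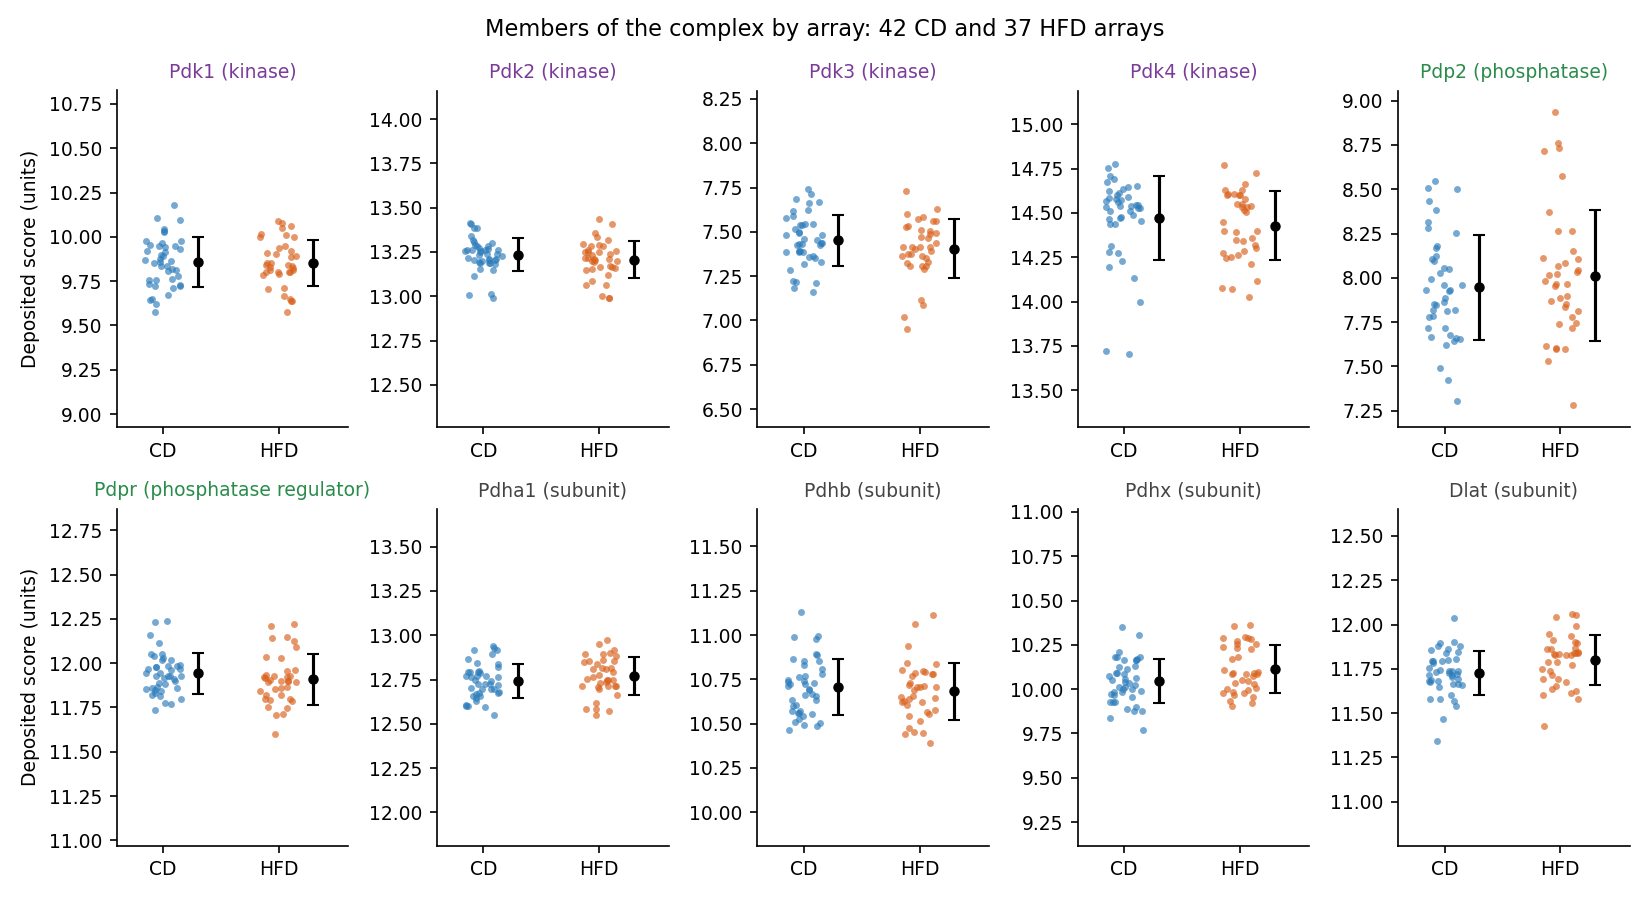
Deposited score (units, vertical axis, all panels spanning the same number of units) of each gene on every CD and HFD array, with the mean and SD in black beside the points. The diets overlap in all 10 panels, Pdp2 is the most spread, and 2 CD arrays of Pdk4, C57BL/6J and BXD68, lie apart below the rest.

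**Figure D2:**
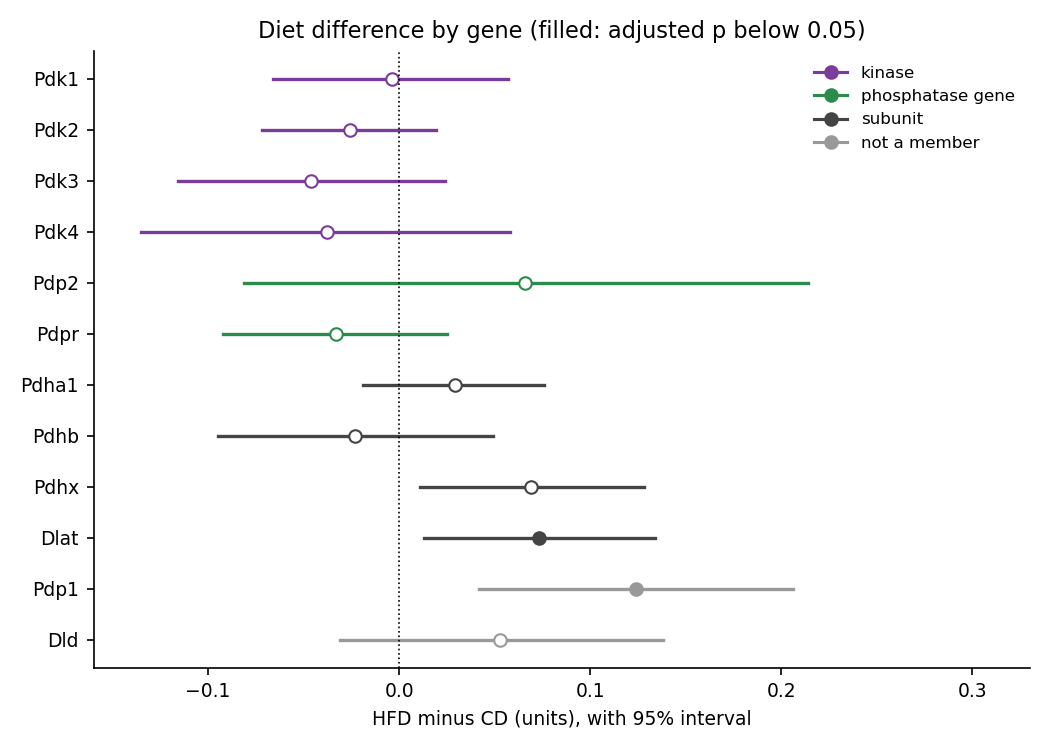
HFD minus CD difference in units (horizontal axis) with its 95% interval from limma for the 10 genes, Pdp1 and Dld, coloured by role, with filled points for an adjusted p below 0.05. All kinase intervals include 0, and the intervals of Dlat, Pdhx and Pdp1 lie above it.

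Within single strains, the median difference of the subunits exceeded that of the kinases in 26 of 37 strains. The gap had a median of 0.063 units and ran from -0.186 to 0.514 units, so strains differed in its sign. It was 0.053 units after the arrays were quantile normalized again. This is a description, and no test was made over the roles.

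Some markers of other cells were called between diets in the same arrays, where 18.9% of all probesets were called higher and 19.3% lower in HFD. With lists this short, such counts are rough. Of 10 adipocyte markers 6 were called higher and 1 lower in HFD, and their summed level was 93.5 to 110.0 units in CD and 95.6 to 109.9 units in HFD. Macrophage markers were called higher in 4 of 5 (summed level 42.5 to 47.1 units in CD and 43.2 to 49.1 in HFD) and endothelial markers in 3 of 5 (median summed level 51.0 units in CD and 51.7 in HFD). Of 9 muscle markers 1 was called higher and 1 lower (summed level 128.9 to 132.0 units over both diets). None of these markers is at 0 on this scale, which has no true zero. A change in the number of cells of a type and a change in RNA per cell cannot be told apart in whole muscle. The part of these cells in the Dlat difference was not tested.

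Among 17 other genes of pyruvate use, 4 were called higher and 4 lower in HFD, with a median difference of 0.037 units. These 8 calls of 17, and the 4 of 11 among the regulators that follow, lie near the 38.1% of all probesets. The higher calls were Gpt, an alanine aminotransferase (0.131 units, limma adjusted p 0.00161), Pdp1 given above, Lias, which makes the lipoyl group that E2 carries (0.102 units, 0.00147), and Lipt1, a lipoyl transferase (0.088 units). The lower calls named by size were Pcx, pyruvate carboxylase (-0.155 units, limma adjusted p 0.00202), Pkm, the muscle pyruvate kinase listed as Pkm2 (-0.115 units, 0.000158), and Slc16a3, a lactate exporter (-0.111 units, 0.032). Mpc1, part of the mitochondrial pyruvate carrier and listed as Brp44l, was the remaining lower call at -0.066 units (limma adjusted p 0.0409). Of 11 regulators known to act on kinase genes, 3 were called higher, Pparg (0.260 units), Hif1a (0.206 units) and Ppargc1b (0.139 units), and 1 was called lower, Foxo1 (-0.173 units, limma adjusted p 0.0125). Ppara and Ppard, the fatty acid receptors that act on Pdk4, differed by 0.031 and 0.052 units and were not called.

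Genes of fat use that fasting is known to raise in muscle were set beside Pdk4. Of the 19 genes of this list 15 were called higher and 1 lower, against 18.9% and 19.3% of all probesets. Their median difference was 0.225 units, where Pdk4 differed by -0.038 units. Ech1 (0.551 units), Angptl4 (0.537 units) and Decr1 (0.460 units) had the largest differences, and the 1 lower call was Ucp3, a mitochondrial uncoupling protein (-0.239 units, limma adjusted p 0.0262). The difference between these genes and Pdk4 was not tested.

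The next question was whether the genes differ among strains, with the CD and HFD arrays of a strain as its replicates. Pdha1 and Dlat were called, 2 of 10 genes, where 13.6% of all probesets were called (limma F-test with diet and batch, Benjamini-Hochberg). For Pdha1 the F value was 3.07 (adjusted p 0.00682) and the share of the remaining spread that lay among strains was 0.606, which is above 96.2% of all probesets. For Dlat F was 2.71 (limma adjusted p 0.0171) and the share 0.497. Dlat was not called without BXD65 (limma adjusted p 0.0661), and Pdha1 was not called after arrays were centred on their medians (0.0575). Over all probesets the share had a median of 0.141.

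The kinases fell at different points of this measure. Pdk2 had a share of 0.453 (limma adjusted p 0.0862), Pdk3 0.330 (0.111) and Pdk1 0.296 (0.164), while Pdk4 had 0.061 (0.501), which is the lowest of the 10 genes. Pdpr had a share of 0.375 (limma adjusted p 0.0966), Pdhb 0.342 (0.0975), Pdhx 0.285 (0.188) and Pdp2 0.20 (0.228). In all, 7 of the 10 genes had an unadjusted p below 0.05, against 28.3% of all probesets. All of the 10 but Pdk3 were brighter than the median probeset. Among the brighter probesets, fitted alone, 7824 of 17778 had such a p. With dim probesets (mean below the median of all) removed, and again in strains with both arrays in 1 batch, Pdk2, Pdhb and Pdpr were also called. In these fits 30.4% and 14.6% of all the probesets tested were called. Pdk2 was called as well with a robust limma-trend fit (limma adjusted p 0.0269), in which 14.8% were called. Among the genes outside the 10, Pdp1 was called (limma adjusted p 0.0191) and Dld was not (0.0573).

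The same was asked as a correlation of CD with HFD values across 37 strains, once the mean of each batch had been subtracted in either diet. All 35556 probesets were tested, 10.6% of them were called on r and 9.3% on rho, and p-values were adjusted over all. For Pdha1, r was 0.609 (permutation p 7e-05, adjusted 0.00189) and rho 0.574 (permutation p 0.00023, adjusted 0.00547). Its r was 0.718, 0.537 and 0.511 in strains with both arrays in batch 1 (12 strains), both in batch 2 (17 strains) and in different batches (8 strains), and 0.559 when the 2 strains with the most extreme CD values were dropped. The relation of Pdha1 thus kept its sign in each set of strains. The second probeset gave r 0.214 (permutation p 0.203) and rho 0.122 (p 0.473).

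For Dlat, r was 0.513 (permutation p 0.00114, adjusted 0.0162) and rho 0.419 (permutation p 0.0103, adjusted 0.0859). Batch 1 gave r 0.716, batch 2 gave 0.043 and strains of different batches gave 0.693. It was 0.386 (adjusted p 0.133) without its 2 most extreme CD strains, which means that part of the relation came from those strains, and it did not hold within batch 2. For Pdk2, r was 0.497 (permutation p 0.00194, adjusted 0.0241) and rho 0.410 (permutation p 0.0117, adjusted 0.0934). Batch 1 gave r 0.651, batch 2 gave 0.538 and strains of different batches gave -0.126. It was 0.546 without its 2 most extreme CD strains. Leaving out BXD65 ended both calls (adjusted p 0.0577 for Dlat and 0.114 for Pdk2), and the call of Pdk2 was also lost without BXD80 and without BXD90.

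Pdk4 had the lowest r of the 10 genes, 0.084 (permutation p 0.626, adjusted 0.842), with rho 0.310 (permutation p 0.062, adjusted 0.265). The value of r turned on 2 strains. BXD68 had 13.72 units in CD, among the lowest, and 14.73 units in HFD, among the highest, and C57BL/6J had 13.70 units in CD and 14.39 units in HFD. Without these 2 strains, the most extreme in CD, r was 0.385 (adjusted p 0.131). The r of Pdk4 between diets was 0.574 in strains of batch 1, -0.317 in batch 2 and 0.349 in different batches. In the same CD arrays the 8 slow fibre markers averaged -0.881 units (C57BL/6J) and -0.755 units (BXD68) from the diet mean, and the 19 fat-use genes known to rise with fasting averaged -0.508 and -0.213 units. In their HFD arrays the slow fibre markers stood at 0.90 and -0.342 units and the fat-use genes at -0.008 and 0.043 units, so both lists were higher relative to the diet mean in HFD than in CD in both strains, as Pdk4 was. Over 79 arrays the r of Pdk4 with single slow fibre markers ran from 0.056 to 0.195, and the part of fibre content in these values was not tested. The other 6 genes had r from 0.227 (Pdp2) to 0.419 (Pdpr, adjusted p 0.0765 by permutation), and none passed the adjusted threshold. After the arrays were quantile normalized again Pdpr was called (r 0.464, permutation adjusted p 0.0366) and Pdk2 was not (r 0.417, 0.0819). Pdpr was also called without BXD61 and without BXD69.

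**Figure D3:**
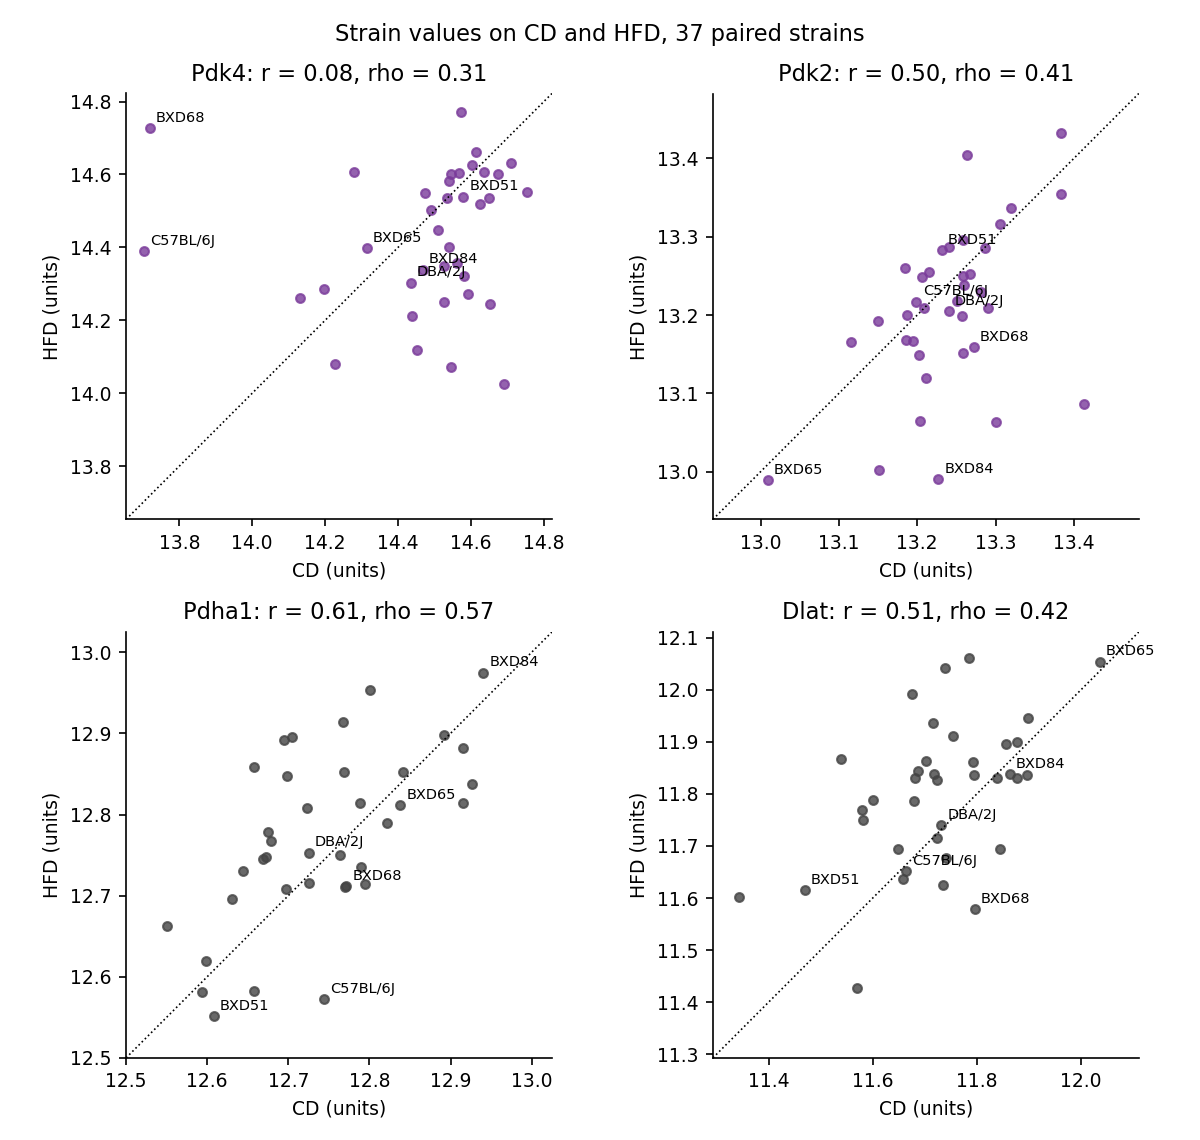
Score in HFD (vertical axis, units) against CD (horizontal axis, units) for 37 paired strains in Pdk4, Pdk2, Pdha1 and Dlat, with the line of equal values dotted and r and rho after removal of batch means. Pdha1 strains follow the line, whereas Pdk4 has BXD68 and C57BL/6J far to the left.

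Strain ranges were read from the lowest to the highest array within a diet, which rests on 2 arrays and has no test. Pdk4 ranged 2.11-fold nominal in CD, from C57BL/6J to BXD50, and 1.68-fold in HFD, from BXD70 to BXD71. Between the 10th and 90th percentile it spanned 1.39-fold in CD and 1.37-fold in HFD, so the wider CD range came from its lowest arrays. Pdp2 had the widest range, 2.36-fold in CD and 3.15-fold in HFD. Pdp2 and Pdk3 were the dimmest of the 10 genes, brighter than 52.6% and 40.4% of all probesets, against 99.7% for Pdk4. The part of noise in their ranges was not tested. For Pdk3 the CD range was 1.5-fold and the HFD range 1.71-fold, which was wider than that of Pdk4. After quantile normalizing again the HFD range of Pdk4 was the wider, 1.81-fold against 1.72-fold. On the deposited scores the HFD span of Pdk4 between the 10th and 90th percentile was also the wider, 0.454 against 0.358 units. Pdk1 had 1.52-fold and 1.43-fold, and Pdk2 1.34-fold and 1.36-fold. Pdha1, read from its brighter probeset, had 1.31-fold and 1.34-fold, and its second probeset 1.62-fold and 1.81-fold. Between the 10th and 90th percentile Pdk2 spanned less than Pdha1, 0.186 and 0.261 units against 0.279 and 0.292, and after quantile normalizing again its range was also the narrower, 1.28-fold and 1.31-fold against 1.33-fold and 1.41-fold. The ranges were 1.59-fold and 1.65-fold for Pdhb, 1.62-fold and 1.55-fold for Dlat, 1.5-fold and 1.37-fold for Pdhx, and 1.41-fold and 1.54-fold for Pdpr.

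Both Pdp2 and Pdk4 had their largest diet difference in BXD68, where Pdp2 was higher in HFD by 1.27 units and Pdk4 by 1.01 units. In the same strain Pdp1 changed by -0.476 units and Dlat by -0.218 units, the lowest differences of these genes among the 37 strains. At the other end Pdk4 changed by -0.665 units in BXD70. Each strain had 1 array per diet, so that these differences have no replicate.

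Strains at the ends of the order recurred over the subunits. BXD51 had the lowest mean of both diets among 37 strains for Pdha1 (12.61 units in CD and 12.55 in HFD), for Pdhb (10.46 and 10.39) and for Pdhx (9.77 and 10.01), and ranked 3 from the lowest for Dlat. BXD65 had the highest mean for Pdhb (11.13 units in CD and 11.06 in HFD), Pdhx (10.30 and 10.28), Dlat (12.04 and 12.05) and Pdpr (12.24 and 12.12), and also for Dld. The same strain had the lowest mean for Pdk2 (13.01 units in CD and 12.99 in HFD). BXD43 had the lowest mean for Dlat (11.34 and 11.60), Pdpr (11.74 and 11.60) and Dld, and the highest mean for Pdk4 (14.71 and 14.63). These strains were picked for their place in the order, so their values are a description. In BXD65 the 6 red cell markers were the lowest of 37 strains, at -0.635 units from the diet mean on average, while its slow fibre markers ranked 19th of 37. Its fat-use genes ranked 36th from the lowest (0.231 units) and its adipocyte markers 32nd (0.379 units), and in BXD51 the adipocyte markers ranked 36th (0.442 units). The part of blood, fat or fasting in the values of these strains was not tested.

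**Figure D4:**
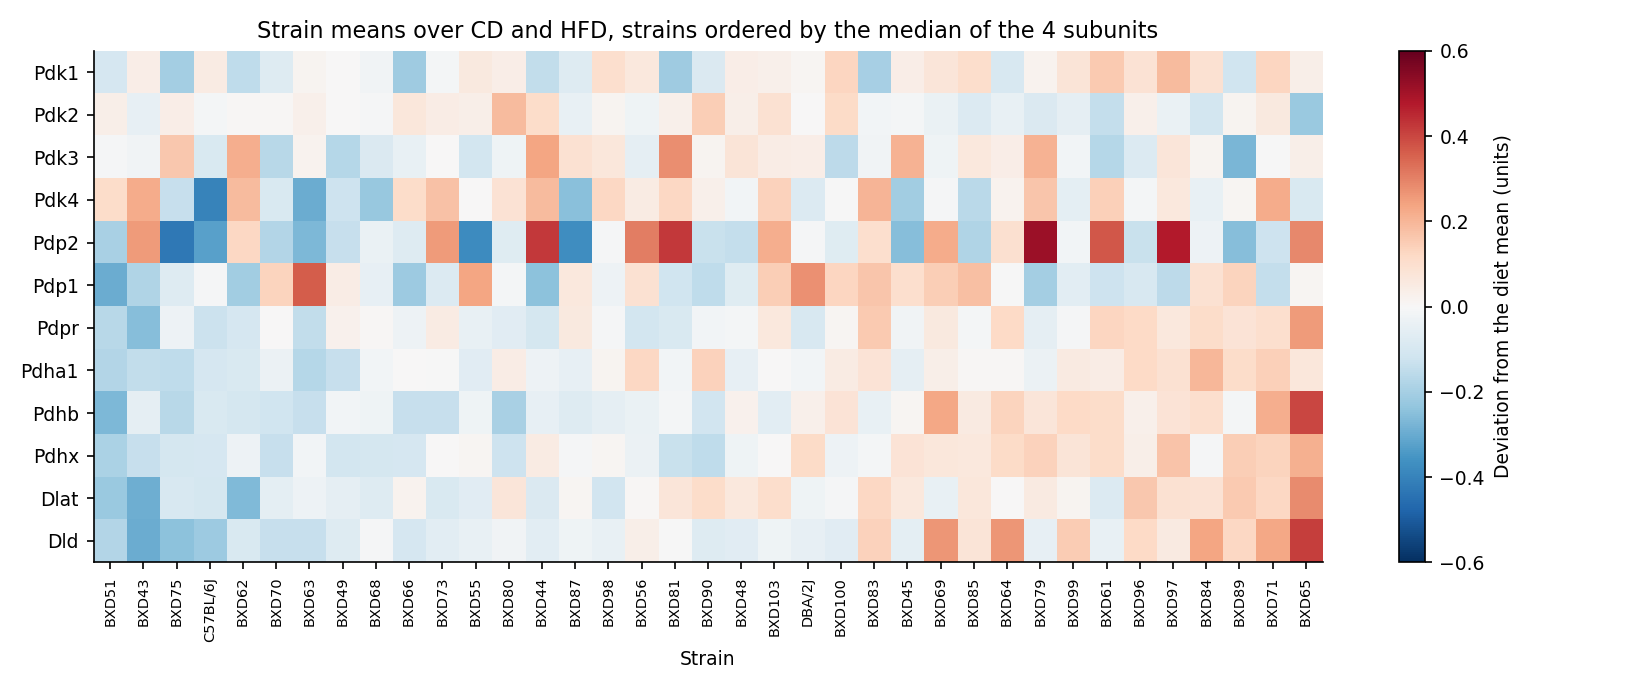
Deviation of each strain from the diet mean in units (colour), averaged over CD and HFD, for the 10 genes, Pdp1 and Dld (rows) in 37 strains (columns), ordered by the median of the 4 subunits. Subunits, Pdpr and Dld pass together from BXD51 at the left to BXD65 at the right, where Pdk2 is at its lowest.

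BXD lines inherit their alleles from 1 or the other parent, which were therefore compared. Of the 10 genes, 0 were called between C57BL/6J and DBA/2J, where 1.26% of all probesets were called (limma, Benjamini-Hochberg), and 0 of the 10 had an unadjusted p below 0.05, against 8.31% of all probesets. Pdk4 was 13.70 units in CD and 14.39 in HFD in C57BL/6J, and 14.43 and 14.30 in DBA/2J. The values were farther apart in CD than in HFD, and the difference over both diets was -0.322 units (C57BL/6J minus DBA/2J, 95% interval -0.732 to 0.088, limma adjusted p 0.790). The interval is wide because each parent had 1 array per diet. Pdhx was 9.97 and 9.98 units in C57BL/6J and 10.16 and 10.23 units in DBA/2J, which differ by -0.218 units (SE 0.113, limma adjusted p 0.643). The estimate was below 0 for 9 of the 10 genes, Pdk1 being the exception at 0.037 units. Over all probesets its median was -0.0025 units. The 10 estimates come from the same 4 parental arrays and are not independent, and that of Pdha1 was 0.0095 units on its second probeset.

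How the genes varied with each other was described over the 79 arrays after diet and batch means were removed. These arrays include 37 pairs from 1 strain, so no p is given. The 4 subunits varied together, with r from 0.399 to 0.668 over their 6 pairs (median 0.492). All 6 values were lower in HFD than in CD, and those with Dlat were 0.714 in CD and 0.484 in HFD for Pdha1, 0.590 and 0.357 for Pdhb, and 0.616 and 0.196 for Pdhx. These differences between diets were not tested. Pdhb and Pdhx had the highest of these values, 0.668, with 0.695 in CD and 0.640 in HFD, and 0.710 and 0.631 in batches 1 and 2. The kinases shared little variation, with r from -0.072 to 0.148 (median 0.041). Pdpr varied with the subunits, at 0.641 with Pdha1, 0.619 with Pdhb, 0.522 with Pdhx and 0.508 with Dlat, and its r with Dld was 0.776.

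Pdk2 ran against some subunits. Its r was -0.592 with Pdhb, -0.504 with Pdhx and -0.529 with Pdpr, and -0.237 with Pdha1 and -0.077 with Dlat. Without BXD65 the values were -0.521, -0.452 and -0.466 with the first 3 genes. The r with Pdpr was -0.619 in batch 1 and -0.196 in batch 2, while the r with Pdhb was -0.687 and -0.446.

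Pdk4 ran with Pdp2 and against Pdp1. It had r 0.643 with Pdp2 and -0.524 with Pdp1, the other catalytic phosphatase subunit, and Pdp1 and Pdp2 had -0.464. The r of Pdk4 with Pdp2 was 0.616 in CD, 0.703 in HFD, 0.634 in batch 1 and 0.651 in batch 2, and with Pdp1 -0.439, -0.643, -0.619 and -0.454 in the same order. Without BXD68, whose differences were the largest, r was 0.609 with Pdp2 and -0.494 with Pdp1. With Pdpr the r of Pdk4 was -0.035, and with the 4 subunits it ran from -0.227 to 0.061.

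**Figure D5:**
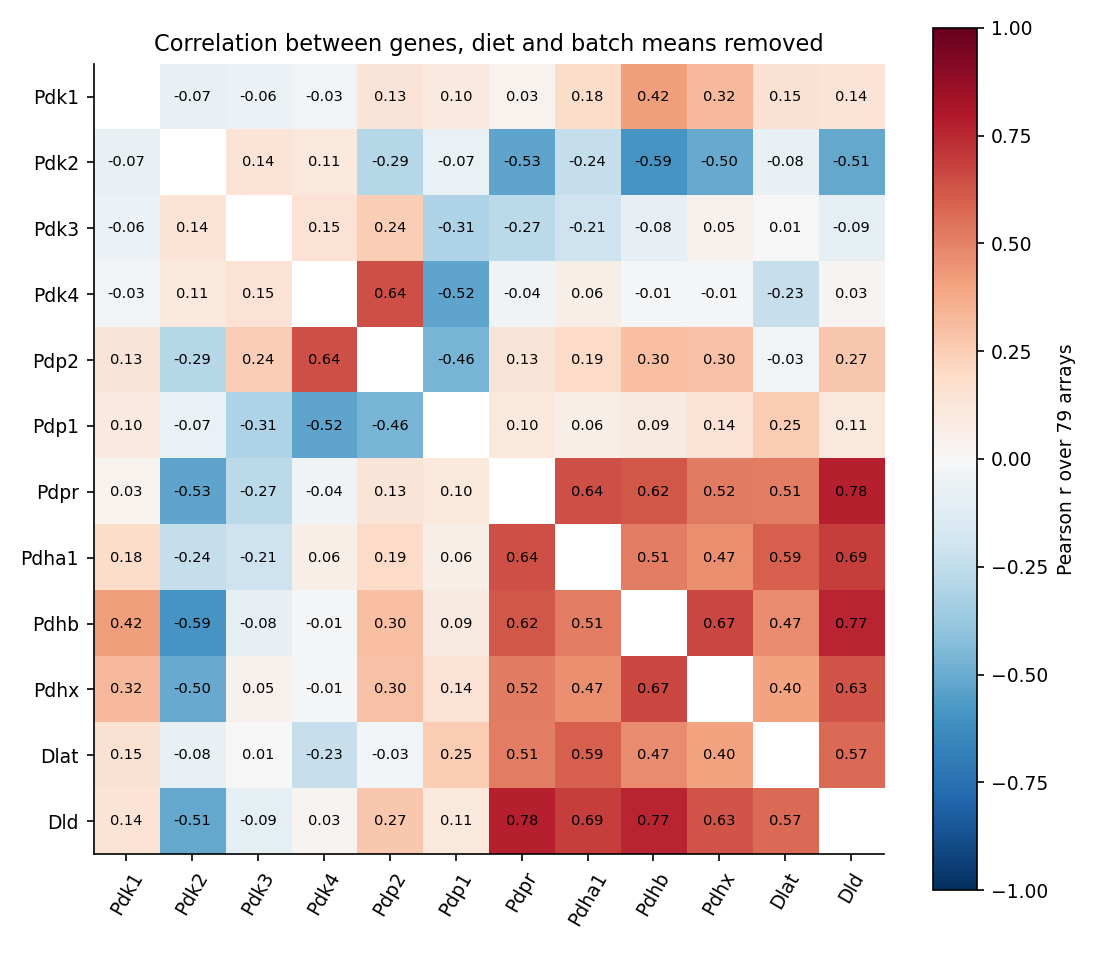
Pearson r between genes (rows and columns) over 79 arrays after diet and batch means were removed, with the value in each cell. Subunits, Pdpr and Dld form a block of positive values, Pdk2 is negative with most of that block, and Pdk4 is positive with Pdp2 and negative with Pdp1.

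The genes most like Pdk4 among 22335 by r over the 79 arrays were Ucp3 (0.870), Acot2, a mitochondrial thioesterase (0.859), Tacc2 (0.836), Fam134b (0.807) and Plin4, a lipid droplet protein (0.806). The value for Ucp3 was 0.879 in CD and 0.871 in HFD, and 0.839 and 0.889 in batches 1 and 2. Of the regulators, Foxo1 had r 0.559 and Foxo3 0.429 with Pdk4, while Ppara had 0.071 and Ppard -0.168. Of the fat-use genes that are known to rise with fasting, Acot1 (0.651), Angptl4 (0.609) and Cd36 (0.576) also had high values, whereas Acaa2 (0.010) and Acadvl (0.046) did not, and the median over the 19 genes was 0.272. The genes most like Pdha1 were Ndufs1, a complex I subunit (0.768), Dld (0.694), Plekhb2 (0.669), Dlst, the E2 of the oxoglutarate dehydrogenase complex (0.667), and Idh3a, an isocitrate dehydrogenase subunit (0.653). For Ndufs1 r was 0.771 in CD and 0.765 in HFD, and 0.785 and 0.744 in batches 1 and 2. Esrra, a receptor known for its mitochondrial targets, had r 0.515 with Pdha1 and -0.100 with Pdk4.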

How the data were processed

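The authors deposited 1 score per probeset and array, with all arrays rescaled to mean 8.0 and SD 2.0 across 35556 probesets. The labels name Affymetrix Expression Console. The summarization, log base and any batch correction are not given in the sources used here. The values behave as logs, so the linear models planned for log2 values were run on the scores. Arrays carry no counting depth, and their number limits the precision. The members and lists were chosen with earlier results of these data known.

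Diet and batch were the terms of a limma 3.58.1 model (lmFit, eBayes) over 79 arrays. The strain F-test and the parental contrast used strain, diet and batch over 74 arrays of 37 paired strains, and the parental contrast assumes that the parents vary like the other strains. A gene was called where p, adjusted by Benjamini-Hochberg over all probesets, was below 0.05. For the correlation between diets, strains were permuted 100000 times (two-sided), with exact enumeration for the 8 strains in different batches. Each such correlation was pooled only where strains did not form separate clusters (a BIC gain of at least 10 and Ashman's D above 2), and none of the 10 genes did. The scripts were tested on simulated data. The software was Python 3.11.15 with matplotlib 3.10.9, scikit-learn 1.9.0, scipy 1.17.1, pandas 2.3.3 and numpy 2.4.6, and R 4.3.3.

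The text names the 10 genes, Dld and Pdp1, the called genes of each list with the 3 largest differences in each direction, and the 5 genes most like Pdk4 and Pdha1. Other genes, and single strains, were named after their values were seen. Other genes of the lists count in the totals without being named, and 1 result is not reported here. Arrays were paired by the strain name in the labels. The deviations of the arrays of a strain correlated at a median of 0.205 (-0.131 to 0.392), above 0.1 in 33 of 37 strains. A CD column headed BXD92 was matched to BXD92a. Leaving out each strain in the strain and cross-diet tests, and every alternative for roles and lists, were chosen after seeing the data.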

Additional observations from a re-analysis of the deposited data

How the results depend on the processing

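Arrays give no counts, and 1 array per strain and diet sets what can be seen. The diet call of Dlat was lost, leaving 0 of 10 genes called, in batch 1 alone (12.6% of all probesets called), batch 2 alone (24.4%), paired strains without the block (35.9%), without BXD63 (39.6%), after quantile normalizing again (37.4%), without dim probesets (9 genes left, 29.8%) and with an olfactory receptor covariate (31%), against 38.1% (limma adjusted p 0.0568 to 0.363), while its difference stayed at 0.0645 to 0.0843 units. With strain as a replicate block, with the methods' t-test and after median centring 2 were called, Dlat and Pdhx, and with the second Pdha1 probeset 2 as well. Strain as a block changed no other call among the 10 genes. Leaving out each strain gave 0 to 2 (13109 to 14074 probesets called). The sign of Pdk1 turned in batch 1 alone (0.00299 units), with the block (0.00503), in paired strains without it (0.00337) and after median centring (0.0127), and when single strains were left out it ran from -0.0137 to 0.00368. That of Pdp2 turned with the olfactory receptor covariate (-0.0849). Median centring moved the split over all probesets to 8199 higher and 5758 lower, from 6703 and 6848.

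The strain test called 5 of 10 genes in strains with both arrays in the same batch (14.6% of all probesets), 5 of 9 without dim probesets (30.4%), 1 after median centring (11.5%) and 1 with the second Pdha1 probeset, and 1 to 4 when each strain was left out (4043 to 5691 of 35556 probesets called). The cross-diet test called 1 gene by rho and 0 in each set of strains (12, 17 and 8 strains, in which 2.24%, 3.39% and 0 of all probesets were called, so that the last set says nothing about the 10 genes), and 1 to 4 when each strain was left out. Its r turned in batch 1 for Pdk1 (-0.0656) and Pdk3 (-0.125), in batch 2 for Pdk4 (-0.317), and in strains of different batches for Pdk2 (-0.126), Pdp2 (-0.170), Pdpr (-0.198), Pdhb (-0.0736) and Pdhx (-0.272). The parental estimate of Pdha1 was 0.0095 on its second probeset. The median range was 0.592 units in CD and 0.626 in HFD, and 0.325 and 0.362 between the 10th and 90th percentile. Batch 1 alone, with 12.6% of all probesets called, called 18 of 47 list genes, against 28, and leaving out each strain gave 26 to 30. The cause of these changes was not tested.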
